A study of Homo sapiens with 9 samples.

Results

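The comparison described here sets HEK293T cells that over-expressed the longevity-associated variant of BPIFB4 (LAV-BPIFB4) against the same cells over-expressing the wild-type protein (WT-BPIFB4). HEK293T is a human embryonic kidney line that is easily transfected. In the LAV-BPIFB4 group the pRK5 plasmid encoded the variant protein, in the WT-BPIFB4 group it encoded the wild-type protein, and the remaining group carried an empty plasmid. All cells were transfected with the lipid reagent Lipofectamine, and serum was withdrawn for 18 hours starting 24 hours after transfection, so the empty-vector cells share both steps. There were 3 bead arrays per group, 9 in the series, and 6 of them enter the comparison. Of 47310 probes on the array, 19072 were detected (detection p-value under 0.05) on 3 or more of these 6 arrays and were kept. They include 14738 probes with a single gene symbol, for 11178 genes, and 4334 probes (22.7%) without one. Where a gene had several kept probes, the one with the highest mean level stands for it. All levels below are normalized log2 intensities, and all differences are LAV-BPIFB4 minus WT-BPIFB4 on the log2 scale. The arrays hold bulk RNA of a transiently transfected culture, so fewer cells carrying a plasmid and less RNA per cell cannot be told apart.

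BPIFB4 belongs to the BPI fold family, proteins with a lipid-binding fold related to the bactericidal/permeability-increasing protein. The longevity-associated variant is a haplotype of coding changes in the gene, and the series asks about its role in endothelial function and vessel growth. In vessel lining, nitric oxide made by NOS3 relaxes the vessel wall. Work on the protein has linked it to the kinase PERK (gene EIF2AK3), to 14-3-3 adaptor proteins and to HSP90. Over-expressed secretory or mutant proteins can also call on chaperones: the HSP70 proteins bind unfolded chains, HSP40 (DNAJ) proteins deliver clients to them, and BAG proteins exchange their nucleotide.

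Between 18940 and 20167 probes per LAV-BPIFB4 array were detected above background, against 19283 to 20029 per WT-BPIFB4 array. Pairs of arrays across the groups correlated at 0.978 to 0.988, a range that overlapped that of pairs within LAV-BPIFB4 (0.983 to 0.988) and within WT-BPIFB4 (0.976 to 0.985). On the first principal component, with 34.0% of the variance, the LAV-BPIFB4 arrays lay at 24.2, 19.03 and 21.5, the WT-BPIFB4 arrays at -11.9, 9.58 and 28.2, and the empty-vector arrays between -31.5 and -29.2. The WT-BPIFB4 arrays were thus spread out, with replicate 1 the lowest and replicate 3 the highest of the LAV-BPIFB4 and WT-BPIFB4 arrays. When arrays were weighted in the fit, replicate 1 of WT-BPIFB4 had the lowest weight, 0.41, and replicate 3 had 0.75. Gene differences that leaving out replicate 1 moved by more than 0.1 are given with and without it. Values without replicate 3 are not given gene by gene. The 9 arrays sat on 1 chip, the arrays of a group next to each other, so position and group cannot be told apart. Of the markers of the HEK293 lineage chosen for a check, SALL2, NEFM and NEFL were detected on all 9 arrays. WT1 was also kept, whereas no probe of PAX2 or LHX1 was kept. None of the 5 endothelial markers (PECAM1, CDH5, VWF, TEK and KDR) was kept. Of the markers of other tissues, EPCAM (epithelium), ALB (liver) and ACTA1 (muscle) were detected on all 9 arrays. COL1A1 (fibroblast) was kept but lay near background, averaging 5.60 with LAV-BPIFB4 and 5.77 with WT-BPIFB4. Each of these 4 genes was the only kept gene of its marker list, among 4, 3, 3 and 5 on the array. They differed by 0.55, -0.08, 0.07 and -0.17, with the other kept EPCAM probe at -0.07. Without WT-BPIFB4 replicate 1, ACTA1 stood at 0.17 and COL1A1 at -0.35. None of the 4 blood markers was kept.

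The array's BPIFB4 probe did not register either transgene. Its signal before normalization was 99.2 ± 10.6 (SD, n = 3) with LAV-BPIFB4, 98.7 ± 8.61 with WT-BPIFB4 and 93.7 ± 8.59 with the empty vector, and its detection p-value lay between 0.474 and 0.896 on the 9 arrays. The probe sequence and the extent of the plasmid insert are not given in the sources used here, so this probe does not check the labels. NOS3 and the 3 probes of CXCL12, a chemokine for CXCR4-bearing cells, were also not detected on any LAV-BPIFB4 or WT-BPIFB4 array.

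No probe differed between LAV-BPIFB4 and WT-BPIFB4 at an adjusted p under 0.05 (limma, two-sided, Benjamini-Hochberg over 19072 probes), so the share of probes called, and of genes called, was 0%. The smallest adjusted p was 0.521. At an unadjusted p under 0.05 there were 900 probes, 4.72% of those tested, of which 521 were higher and 379 lower with LAV-BPIFB4. A uniform spread of p-values would put 953.6 probes in that range, and the counts in the other bins of the same width lay between 859 and 1043. Among genes, 197 (1.76%) were higher and 235 (2.1%) lower at that threshold. All 3 LAV-BPIFB4 arrays lay above all 3 WT-BPIFB4 arrays for 473 genes (4.23%) and below them for 545 genes (4.88%). Over all kept probes, 10.1% had groups that did not overlap. Nothing in the labels shows that the 3 samples of a group came from separate cultures, so these p-values measure only the spread between the samples, which may be technical.

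**Figure D1:**
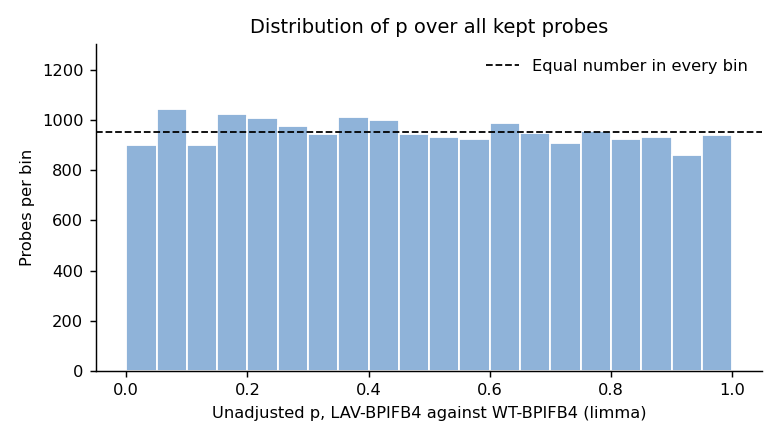
Number of kept probes (vertical axis) in each bin of the unadjusted limma p for LAV-BPIFB4 against WT-BPIFB4 (horizontal axis), with a dashed line at an equal number per bin. The lowest bin holds 900 probes, below the line at 953.6.

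The arrays also bound how far the groups could differ. The median gene differed by -0.01 on the log2 scale, and 5% to 95% of genes lay between -0.34 and 0.34. Only 6 genes were more than 2-fold higher and 1 more than 2-fold lower by their measured means. The unadjusted 95% interval of the difference lay inside a 1.5-fold change in either direction for 6649 of 11178 genes (59.5%) and inside a 2-fold change for 10547 (94.4%). This bound rests on level: 97.1% of the 1154 genes above a mean level of 11 had an interval within 1.5-fold, against 12.1% of the 3711 genes below a level of 7. It also rests on the processing, because the number of genes within 1.5-fold was 936 with median scaling and 10900 without background correction. The plot of difference against level shows this widening toward low levels.

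**Figure D2:**
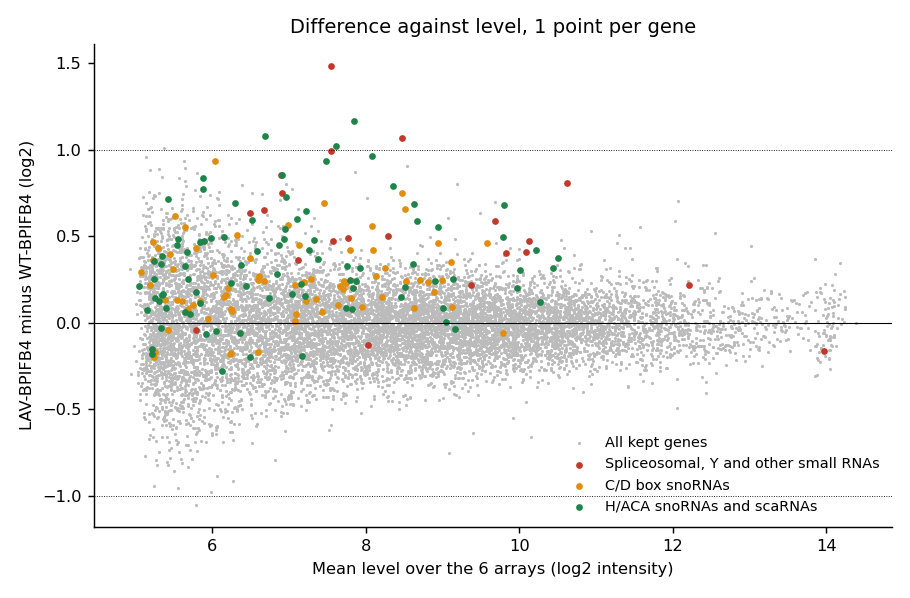
Log2 difference, LAV-BPIFB4 minus WT-BPIFB4 (vertical axis), against the mean log2 intensity over the 6 arrays (horizontal axis), 1 point per gene, with dotted lines at a 2-fold difference. Most genes lie close to 0, and the coloured small RNA genes lie mostly above it, with RNY5 at 1.48 as the highest point.

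Chaperone genes that were high in both transfected groups relative to the empty vector, and were chosen for that from earlier results on these arrays, did not pass the test between the variant and the wild-type protein. HSPA6, an HSP70 that human cells make mainly under proteotoxic stress, had levels of 14.04, 14.07 and 14.01 on the LAV-BPIFB4 arrays, against 14.05, 13.88 and 13.78 on the WT-BPIFB4 arrays. The 2 ranges overlapped, and the empty-vector arrays lay far lower, at 9.73, 9.25 and 10.24. The difference was 0.14 (95% interval -0.20 to 0.47, limma adjusted p = 0.973), and the gene's other kept probe differed by 0.23. HSPA1B, a stress-inducible HSP70 that is also well expressed without stress, differed by 0.08 (-0.17 to 0.33). DNAJB1, the main HSP40 partner of inducible HSP70, had levels of 12.67, 12.40 and 12.57 on the LAV-BPIFB4 arrays, against 12.70, 12.08 and 12.26 on the WT-BPIFB4 arrays, a difference of 0.20 (-0.11 to 0.51). WT-BPIFB4 replicate 1 was the highest of the 6 arrays, and without it the DNAJB1 difference was 0.38. BAG3, which hands HSP70 clients to autophagy, differed by 0.05 (-0.27 to 0.38), and by 0.27 without that array.

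The inducible genes HSPA7 and HSPA1A had higher means with LAV-BPIFB4 without passing the test. HSPA7, annotated as a pseudogene close in sequence to HSPA6, had levels of 12.77, 12.13 and 12.37 on the LAV-BPIFB4 arrays, against 12.26, 11.25 and 11.64 on the WT-BPIFB4 arrays. WT-BPIFB4 replicate 1 fell within the LAV-BPIFB4 range and the other WT-BPIFB4 arrays lay below it. The difference was 0.70 (0.23 to 1.18, limma adjusted p = 0.971), and 0.98 without WT-BPIFB4 replicate 1. HSPA1A, whose product is almost identical to that of HSPA1B, had levels of 9.61, 9.23 and 9.27 on the LAV-BPIFB4 arrays, against 9.04, 8.64 and 8.62 on the WT-BPIFB4 arrays, with 5.35, 4.58 and 4.67 on the empty-vector arrays. Here the groups did not overlap, and the difference was 0.60 (0.16 to 1.05, limma adjusted p = 0.971), and 0.74 without WT-BPIFB4 replicate 1. Probes for HSPA6 and HSPA7, or for HSPA1A and HSPA1B, may share signal because of their similar sequences.

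**Figure D3:**
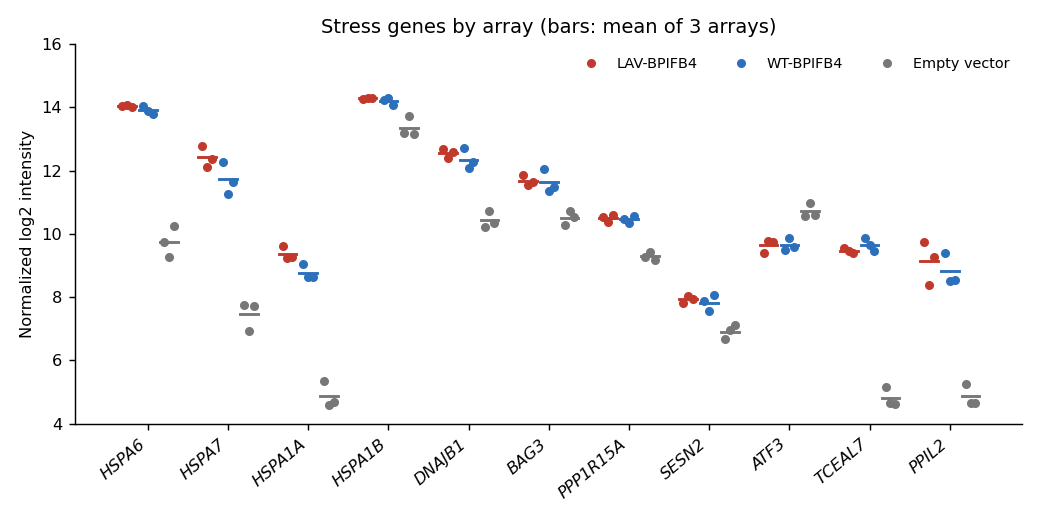
Normalized log2 intensity (vertical axis) of 11 genes (stress genes, TCEAL7 and PPIL2) on each LAV-BPIFB4, WT-BPIFB4 and empty-vector array, with bars at the mean of 3 arrays. The LAV-BPIFB4 and WT-BPIFB4 points overlap for every gene except HSPA1A, while those of the empty vector lie lower for each gene except ATF3.

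The heat shock factor HSF1 switches on such genes through repeats of a short element. The promoters of HSPA6, HSPA1A and BAG2 are shown, chosen after their values were seen, because the HSPA6 groups overlapped, while HSPA1A and BAG2 had the largest differences among the genes of the HSP70 and BAG list whose groups did not overlap. Each line gives the 250 bases before the RefSeq transcription start on GRCh38.p14, 5′ to 3′ on the plus strand, at chr1:161524290-161524539, chr6:31815293-31815542 and chr6:57172076-57172325, with matches to GAANNTTC in capitals. This motif is its own reverse complement, so both strands were searched at once.
HSPA6: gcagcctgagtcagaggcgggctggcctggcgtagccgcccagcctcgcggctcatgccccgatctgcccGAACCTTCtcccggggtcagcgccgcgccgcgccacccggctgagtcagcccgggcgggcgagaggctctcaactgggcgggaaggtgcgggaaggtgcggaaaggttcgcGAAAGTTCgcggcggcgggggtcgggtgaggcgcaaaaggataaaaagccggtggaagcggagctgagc
HSPA1A: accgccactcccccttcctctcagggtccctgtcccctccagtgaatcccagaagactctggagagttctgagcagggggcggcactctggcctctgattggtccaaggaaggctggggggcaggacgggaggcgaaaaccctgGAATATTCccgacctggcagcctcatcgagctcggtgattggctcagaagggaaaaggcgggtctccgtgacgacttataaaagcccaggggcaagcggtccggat
BAG2: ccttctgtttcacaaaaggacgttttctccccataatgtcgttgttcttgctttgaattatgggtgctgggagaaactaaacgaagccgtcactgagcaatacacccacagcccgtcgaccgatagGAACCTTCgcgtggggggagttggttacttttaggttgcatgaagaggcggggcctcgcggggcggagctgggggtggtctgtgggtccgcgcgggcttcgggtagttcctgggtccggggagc
HSPA6 has 2 matches, whose first bases lie 180 and 69 bases before the start, HSPA1A has 1 at 106 and BAG2 has 1 at 124. The motif occurs in 2030 of 35116 promoters of this length (5.78%), where a gene with several starts counts several times. Counted by gene, with a match at any start, it occurs in 5 of 14 genes from the HSP70 and BAG list. For the HSP40 list this count is 3 of 33 genes. The gene counts and the promoter share are therefore not measured alike. A match is a description of letters and not a measured binding site.

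The chaperone lists had medians between -0.11 and 0.05. The 19 measured HSP70, HSP110 and BAG genes had a median difference of -0.01, the same as all genes, with 9 members higher and 10 lower by their means, and 0.09 without WT-BPIFB4 replicate 1. None passed the test, in a comparison where 0% of genes did. For 16 of the 19 the interval lay within 1.5-fold. The 3 exceptions were HSPA7, HSPA1A and BAG2, an exchange factor that holds back the ubiquitin ligase CHIP. BAG2 had levels of 7.39, 7.06 and 7.64 on the LAV-BPIFB4 arrays, against 6.82, 6.32 and 6.56 on the WT-BPIFB4 arrays. Every LAV-BPIFB4 array was above every WT-BPIFB4 array, and the difference was 0.80 (0.36 to 1.24, limma adjusted p = 0.831), and 0.93 without WT-BPIFB4 replicate 1. The empty-vector arrays, at 7.10, 6.94 and 6.93, all lay above the WT-BPIFB4 arrays. The groups also did not overlap for HSPA1A and for BAG5, at 0.19, so all 3 LAV-BPIFB4 arrays lay above for 3 of the 19 members (15.8%, beside 4.23% of all genes). The 35 HSP40 genes had a median of 0.00 and the 14 HSP90 genes and co-chaperones 0.05, with HSP90AA1 at -0.06 (-0.25 to 0.12) and HSP90AB1 at 0.07 (-0.16 to 0.29). The 14 genes of the CCT chaperonin and prefoldin, which fold actin and tubulin, had a median of -0.06, and the 14 mitochondrial chaperones and proteases -0.11, which was -0.06 without WT-BPIFB4 replicate 1. All of these mitochondrial genes had an interval within 1.5-fold.

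Genes of the integrated stress response, which slows translation initiation and raises ATF4 output, had no called member. Its 33 measured genes had a median of -0.05, and 27 had an interval within 1.5-fold. ATF4 differed by 0.06 (-0.12 to 0.24), and PHGDH, an ATF4 target of serine synthesis, by 0.02 (-0.17 to 0.21). PPP1R15A, the phosphatase subunit that ends the response, had levels of 10.54, 10.37 and 10.60 on the LAV-BPIFB4 arrays, against 10.47, 10.35 and 10.55 on the WT-BPIFB4 arrays and differed by 0.05. SESN2, a brake on mTORC1, differed by 0.10 and the transcription factor ATF3 by -0.01, with an interval of -0.32 to 0.31. EIF2AK3, the PERK kinase, was expressed at a low level, with values of 6.32, 6.20 and 6.24 on the LAV-BPIFB4 arrays, against 6.64, 6.51 and 5.93 on the WT-BPIFB4 arrays, and its difference of -0.11 had an interval of -0.58 to 0.36 and was 0.03 without WT-BPIFB4 replicate 1. The 29 endoplasmic reticulum chaperone and unfolded protein response genes had a median of -0.01, with HSP90B1 at -0.13 and SEC61B at 0.20. Without that array they stood at 0.03 and 0.04.

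Genes tied to the study's question did not separate the groups by the test either. Of the 7 genes of the 14-3-3 family, SFN was not detected, and the other 6 had differences between -0.29 and 0.03. YWHAZ had the lowest, -0.29 (-0.55 to -0.04), with levels of 12.41, 12.35 and 12.49 on the LAV-BPIFB4 arrays, against 13.03, 12.66 and 12.46 on the WT-BPIFB4 arrays. The highest LAV-BPIFB4 array was above the lowest WT-BPIFB4 array, so the groups overlapped, and YWHAZ's other kept probe differed by -0.03. WT-BPIFB4 replicate 1 was the highest array, and without it the difference was -0.14. YWHAE stood at -0.10, and at 0.04 without it. All 6 had an interval within 1.5-fold. Of 37 angiogenesis and endothelial signalling genes on the array, 19 were measured, with a median of -0.06. All LAV-BPIFB4 arrays lay above all WT-BPIFB4 arrays for 1 member (5.26%, beside 4.23% of all genes). They lay below for none, beside 4.88% of all genes, so these counts are close to the shares over all genes. VEGFB, a growth factor of the VEGF family, differed by -0.06 (-0.33 to 0.21). CXCR4, the CXCL12 receptor, had levels of 5.86, 5.84 and 6.20 on the LAV-BPIFB4 arrays, against 5.98, 6.16 and 5.97 on the WT-BPIFB4 arrays and differed by -0.07 (-0.67 to 0.53), a wide interval at a level near background.

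TCEAL7 and PPIL2 were likewise chosen for their high level over the empty vector. TCEAL7, a small nuclear protein of the TCEAL family, had levels of 9.55, 9.45 and 9.40 on the LAV-BPIFB4 arrays, against 9.85, 9.65 and 9.45 on the WT-BPIFB4 arrays, against 5.15, 4.65 and 4.63 on the empty-vector arrays. LAV-BPIFB4 and WT-BPIFB4 overlapped, with a difference of -0.19 (-0.57 to 0.19), and -0.09 without WT-BPIFB4 replicate 1. PPIL2, a cyclophilin with a U-box domain, had levels of 9.73, 8.37 and 9.27 on the LAV-BPIFB4 arrays, against 9.40, 8.52 and 8.53 on the WT-BPIFB4 arrays, again overlapping. Its difference was 0.31 (-0.30 to 0.92), or 0.60 without WT-BPIFB4 replicate 1, and its other kept probe, near background, differed by -0.80 in the opposite direction. IER5, which feeds back on HSF1, differed by 0.30 (-0.00 to 0.60), and by 0.44 without that array. PHC1, a Polycomb subunit, differed by -0.38, with WT-BPIFB4 arrays at 4.98, 6.15 and 6.14, and by -0.78 without the first of them. DYNLT3, a dynein light chain, differed by -0.30 (-0.65 to 0.06).

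Among the gene lists with at least 3 measured members, spliceosomal, Y and other small RNAs lay furthest from 0. Spliceosomal snRNAs carry out intron removal, Y RNAs bind the Ro60 protein, and small nucleolar RNAs (snoRNAs) guide modification of ribosomal and spliceosomal RNA. The labelling kit copies RNA from poly(A) tails, which the mature forms of these RNAs lack, so the probe signal is reported here only as array signal. The 21 measured spliceosomal, Y and other small RNAs (of 27 on the array) had a median difference of 0.49, with 18 higher and 3 lower by their means, where 47.3% of all genes were higher. No member passed the test. All 3 LAV-BPIFB4 arrays lay above all 3 WT-BPIFB4 arrays for 6 of them (28.6%), beside 4.23% of all genes, and no member had them all below.

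The size of this difference depended on 1 array in each group. The median level over the 21 genes was 9.35, 8.04 and 8.09 on the LAV-BPIFB4 arrays, against 7.07, 8.20 and 8.14 on the WT-BPIFB4 arrays. On the empty-vector arrays it was 6.71, 6.89 and 6.68. The LAV-BPIFB4 mean exceeded the empty-vector mean for 20 of the 21 genes, and the WT-BPIFB4 mean for all 21. Among all 11178 genes these counts were 5738 and 5846. LAV-BPIFB4 replicate 1 was the highest of the 6 arrays for 19 of the 21 genes (15% of all genes), and WT-BPIFB4 replicate 1 was the lowest for 15 (26.1% of all genes). The median difference was 0.26 without WT-BPIFB4 replicate 1 and 0.27 without LAV-BPIFB4 replicate 1. With both of these arrays left out it was 0.09, with 13 genes higher and 8 lower. WT-BPIFB4 replicate 1 was also the lowest of the LAV-BPIFB4 and WT-BPIFB4 arrays on the first principal component. Its part in the result beyond these values was not tested.

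Single genes of the list show the same arrays at the ends. RNY5, a Y RNA, had levels of 9.45, 7.77 and 7.66 on the LAV-BPIFB4 arrays, against 6.08, 7.03 and 7.32 on the WT-BPIFB4 arrays. The groups did not overlap, and the difference was 1.48 ± 0.38 (SE, limma adjusted p = 0.831), 1.12 without WT-BPIFB4 replicate 1 and 0.54 without replicate 1 of both groups. RNY1 had levels of 9.65, 8.65 and 8.71 on the LAV-BPIFB4 arrays, against 6.66, 8.45 and 8.70 on the WT-BPIFB4 arrays and differed by 1.07, and RNY4 had levels of 8.68, 7.77 and 7.67 on the LAV-BPIFB4 arrays, against 5.90, 7.40 and 7.85 on the WT-BPIFB4 arrays and differed by 0.99. For both, the groups overlapped, because WT-BPIFB4 replicate 3 lay above the lowest LAV-BPIFB4 array. RNY1 and RNY4 stood at 0.43 and 0.42 without WT-BPIFB4 replicate 1, and at 0.10 and 0.09 without replicate 1 of both groups. RNY3, the remaining Y RNA, went the other way at -0.13 (-0.55 to 0.29), with levels of 7.75, 8.04 and 8.10 on the LAV-BPIFB4 arrays, against 7.83, 8.31 and 8.14 on the WT-BPIFB4 arrays, and at -0.26 without WT-BPIFB4 replicate 1.

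RNA5S9, a gene of the repeated 5S ribosomal RNA family whose copies a probe cannot tell apart, had levels of 11.48, 10.80 and 10.79 on the LAV-BPIFB4 arrays, against 9.83, 10.28 and 10.54 on the WT-BPIFB4 arrays. Its groups did not overlap, with a difference of 0.81 ± 0.19 (SE, limma adjusted p = 0.631), 0.62 without WT-BPIFB4 replicate 1 and 0.39 without replicate 1 of both groups. VTRNA1-1, a vault RNA, differed by 0.85 and RNU6ATAC, of the minor spliceosome, by 0.75, or 0.62 and 0.57 without WT-BPIFB4 replicate 1. The U1 genes RNVU1-7, RNU1-1, RNVU1-18 and RNU1-3 differed by 0.58, 0.47, 0.41 and 0.40, and by 0.41, 0.28, 0.14 and 0.19 without that array. These U1 copies are near-identical and share probe signal, so they are not independent of each other. RNU4-1, RNU11, RNU4-2 and RNU4ATAC differed by 0.63, 0.65, 0.49 and 0.50. RNU4-2 and RNU4ATAC stood at 0.26 and 0.24 without WT-BPIFB4 replicate 1. Without replicate 1 of both groups the sign turned for RNU4ATAC (-0.16), RNU4-2 (-0.09), RNVU1-18 (-0.06) and RNU1-3 (-0.05), while RNU4-1 stood at 0.40, RNU11 at 0.20 and RNVU1-7 at 0.19.

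RPPH1 and RMRP, the RNAs of RNase P and RNase MRP, differed by 0.47 and 0.36, or 0.22 and 0.21 without WT-BPIFB4 replicate 1. For RMRP the LAV-BPIFB4 arrays spanned 8.57, 7.14 and 6.16, a wider range than the WT-BPIFB4 arrays at 6.63, 6.70 and 7.45, and without replicate 1 of both groups the difference was -0.43, and that of RPPH1 0.06. RN7SK, a regulator of transcription elongation, differed by 0.22 (-0.09 to 0.53), by 0.11 without WT-BPIFB4 replicate 1 and by 0.07 without replicate 1 of both groups. RNU6-1 differed by 0.21, RNU5A-1 by -0.04 and RN7SL1, the RNA of the signal recognition particle, by -0.16, with RNU5A-1 at -0.20 without WT-BPIFB4 replicate 1. RN7SL1 and RNU6-1 were the brightest members, with RN7SL1 at 13.78, 14.13 and 13.76 on the LAV-BPIFB4 arrays, against 14.02, 14.15 and 13.99 on the WT-BPIFB4 arrays, and both had an interval that included 0.

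**Figure D4:**
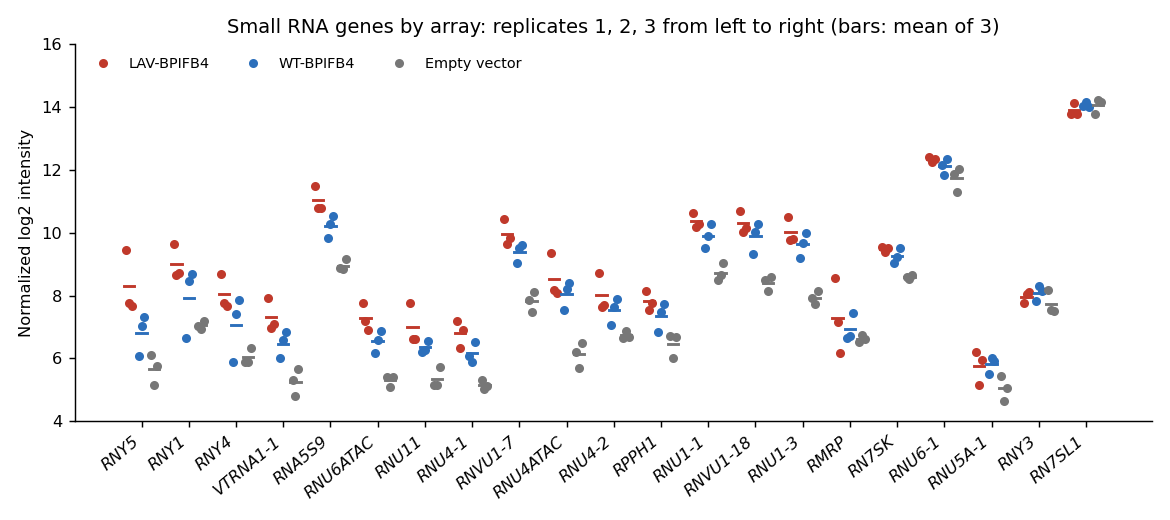
Normalized log2 intensity (vertical axis) of the 21 small RNA genes on each array, replicates 1, 2 and 3 from left to right within a group, with bars at the mean of 3 arrays, ordered by the LAV-BPIFB4 minus WT-BPIFB4 difference. LAV-BPIFB4 replicate 1 is the highest of the 6 BPIFB4 arrays for 19 genes and WT-BPIFB4 replicate 1 the lowest for 15.

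The snoRNAs leaned the same way with smaller values. Of 176 C/D box snoRNAs on the array, which guide ribose methylation, 72 were measured, with a median difference of 0.23. Their means were higher for 65 and lower for 7, and the groups did not overlap for 11 members, in each case with LAV-BPIFB4 above (15.3%, beside 4.23% of all genes). The median level was 7.24, 6.98 and 7.05 on the LAV-BPIFB4 arrays, against 6.85, 6.71 and 6.77 on the WT-BPIFB4 arrays, so here the ordering of the groups held on every array. The empty-vector arrays stood lower, at 6.40, 6.18 and 6.38. Without replicate 1 of both groups the median was 0.14, with 55 of 72 higher. SNORD83B, one of the brightest, had levels of 10.01, 9.57 and 9.87 on the LAV-BPIFB4 arrays, against 9.33, 9.27 and 9.47 on the WT-BPIFB4 arrays, a difference of 0.46 (0.15 to 0.77) with groups that did not overlap. SNORD15B differed by 0.65 (0.21 to 1.10), also without overlap, whereas SNORD68, as bright, differed by -0.06 (-0.38 to 0.26). None passed the test.

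H/ACA snoRNAs guide pseudouridine formation and scaRNAs act on spliceosomal RNA in Cajal bodies. Of 125 on the array, 89 were measured, with a median of 0.31, 79 higher and 10 lower by their means. The median level was 7.17, 6.87 and 6.94 on the LAV-BPIFB4 arrays, against 6.34, 6.63 and 6.76 on the WT-BPIFB4 arrays. The empty-vector arrays stood lower, at 6.09, 6.09 and 6.29. The median was 0.20 without WT-BPIFB4 replicate 1. Without replicate 1 of both groups the median was 0.10, with 59 of 89 higher. SNORA80E had levels of 9.38, 7.63 and 8.28 on the LAV-BPIFB4 arrays, against 6.87, 7.05 and 7.88 on the WT-BPIFB4 arrays and differed by 1.16 ± 0.32 (SE), with WT-BPIFB4 replicate 3 above the lowest LAV-BPIFB4 array. SNORA7B differed less, by 0.55 ± 0.16, but with tighter groups, at 9.29, 9.11 and 9.24 on the LAV-BPIFB4 arrays, against 8.65, 8.68 and 8.65 on the WT-BPIFB4 arrays. Without replicate 1 of both groups SNORA80E stood at 0.49 and SNORA7B at 0.51. SNORA13 differed by 0.85, SNORA9 by 1.08 and SCARNA13, among the brightest, by 0.38. Without WT-BPIFB4 replicate 1, SNORA80E stood at 0.96, SNORA13 at 0.64 and SCARNA13 at 0.20.

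In the second deposited table, where the LAV-BPIFB4 values fit no array of the series, the 3 small RNA medians were 0.21, 0.10 and 0.10. These are the spliceosomal and Y, the C/D box and the H/ACA list, all smaller than in the arrays. The 14 snoRNA host genes, whose introns carry many snoRNAs and whose spliced transcripts have poly(A) tails, had a median of 0.11, with 11 higher and 3 lower, and 0.04 without WT-BPIFB4 replicate 1. Their brightest members, SNHG5 and SNHG32, differed by 0.06 and -0.01, although the other kept probe of SNHG5 differed by 0.34. The 29 microRNA genes had a median of 0.14, with 18 higher. The 129 long intergenic and antisense RNAs had a median of 0.12 and the 41 histone genes 0.09, with 33 histones higher and 8 lower. Protein-coding genes, 10559 in number, had a median of -0.02.

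Genes for proteins that work with these RNAs had medians near 0. The 49 snRNP and core spliceosome proteins had a median of 0.04, with SNRPD2 at 0.07 (-0.13 to 0.28) and SNRPG at 0.03 (-0.17 to 0.24). The 36 ribosome biogenesis genes had a median of 0.03, and NOP56, a core protein of C/D box particles, differed by -0.02 (-0.23 to 0.19) with its other probes at 0.35 and -0.10. NCL, nucleolin, had levels of 12.82, 12.67 and 12.67 on the LAV-BPIFB4 arrays, against 13.10, 12.86 and 12.87 on the WT-BPIFB4 arrays and differed by -0.22 (-0.43 to -0.01). The 40 hnRNP and SR splicing regulators had a median of -0.07, with 11 higher and 29 lower, and 0.00 without WT-BPIFB4 replicate 1.

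The gene with the smallest p of all was HNRNPA3, an hnRNP that binds pre-mRNA and telomeric DNA. Its levels were 9.81, 9.87 and 9.79 on the LAV-BPIFB4 arrays, against 10.29, 10.53 and 10.63 on the WT-BPIFB4 arrays, so all LAV-BPIFB4 arrays lay below all WT-BPIFB4 arrays. The empty-vector arrays, at 9.99, 9.95 and 9.90, lay near those of LAV-BPIFB4. The difference was -0.66 ± 0.12 (SE, limma adjusted p = 0.521). Without WT-BPIFB4 replicate 1 it was -0.76 (limma adjusted p = 0.083), and in the second deposited table -0.35. HNRNPA3 was called under 2 of the alternative settings given at the end. SRSF5, an SR protein of alternative splicing, had levels of 11.47, 11.67 and 11.54 on the LAV-BPIFB4 arrays, against 12.03, 11.86 and 11.84 on the WT-BPIFB4 arrays and differed by -0.35, with its other kept probe at -0.32. HNRNPA2B1 differed by -0.01 (-0.24 to 0.22) and HNRNPD by -0.14 (-0.33 to 0.06).

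The other genes with the smallest p and a lower mean in LAV-BPIFB4 came from several classes. KIFC1, a minus-end kinesin of the spindle, had levels of 9.11, 9.26 and 8.86 on the LAV-BPIFB4 arrays, against 9.76, 9.69 and 9.70 on the WT-BPIFB4 arrays and a difference of -0.64 ± 0.16 (SE). MYDGF, the myeloid-derived growth factor, had levels of 9.60, 9.80 and 9.53 on the LAV-BPIFB4 arrays, against 9.93, 10.24 and 10.42 on the WT-BPIFB4 arrays and a difference of -0.55. Neither overlapped between the groups. TFRC, the transferrin receptor that brings iron into cells, differed by -0.49, with LAV-BPIFB4 arrays at 11.43, 12.15 and 11.86 and WT-BPIFB4 arrays at 12.44, 12.40 and 12.08, and by -0.23 without replicate 1 of both groups. SYDE2, ZNF286A, PI4KAP2, NEIL2 (a DNA repair glycosylase) and SLC7A5P2 differed by -0.81, -0.70, -0.46, -0.80 and -0.31. In the second deposited table these differences were -0.16, -0.18, -0.07, -0.14 and -0.32. SYDE2 lay near background and was detected on 1 LAV-BPIFB4 array. The NEIL2 groups overlapped, and the other kept PI4KAP2 probe differed by -0.12. Without WT-BPIFB4 replicate 1, MYDGF stood at -0.69 and PI4KAP2 at -0.59. PI4KAP2 and SLC7A5P2 are pseudogenes whose probes may read their parent genes.

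On the higher side, PTGR2, an enzyme that reduces prostaglandins, had levels of 9.39, 8.50 and 9.07 on the LAV-BPIFB4 arrays, against 8.30, 7.72 and 8.24 on the WT-BPIFB4 arrays, without overlap, and differed by 0.90 ± 0.23 (SE, limma adjusted p = 0.8). The spread within each group was large for both PTGR2 and RHBDL2, a rhomboid protease, which had levels of 9.97, 9.07 and 9.73 on the LAV-BPIFB4 arrays, against 9.06, 8.35 and 8.95 on the WT-BPIFB4 arrays. RHBDL2 differed by 0.80, whereas its other kept probe differed by 0.04. COX7C, a subunit of cytochrome c oxidase, had levels of 14.16, 13.98 and 13.97 on the LAV-BPIFB4 arrays, against 13.48, 13.83 and 13.69 on the WT-BPIFB4 arrays and differed by 0.37 (0.15 to 0.58). Without WT-BPIFB4 replicate 1, PTGR2 stood at 1.01, RHBDL2 at 0.94 and COX7C at 0.25. RPL21P28, a ribosomal protein pseudogene, differed by 0.51 with another probe at 0.10. GMPR, guanosine monophosphate reductase, was detected on all 3 LAV-BPIFB4 arrays and on no WT-BPIFB4 array, at 5.87 and 4.86. Its difference was 1.01 (0.43 to 1.59, limma adjusted p = 0.934), and 0.21 in the second deposited table. With the WT-BPIFB4 values set no lower than the lowest detected signal of each array, the means differed by 1.58-fold. The GMPR probe was kept only through the LAV-BPIFB4 arrays, so its detection there is no support for a difference.

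Detection on one side only was otherwise rare. There were 60 probes detected on all LAV-BPIFB4 arrays and no WT-BPIFB4 array, and 81 the other way round. At a detection p under 0.01 for the detected side these counts were 0 and 1. The single probe, for BRI3BP and chosen after its values were seen, averaged 5.11 with LAV-BPIFB4 and 6.24 with WT-BPIFB4 (limma adjusted p = 0.773). With the LAV-BPIFB4 values set no lower than the lowest detected signal of each array, the means differed by 2.01-fold. This probe was kept only through the WT-BPIFB4 arrays, so the gap is no support for a difference. The main BRI3BP probe showed no such gap, with a difference of -0.14 (-0.45 to 0.17).

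Growth and proliferation classes had medians below 0, which moved toward 0 without WT-BPIFB4 replicate 1 except for the p53 targets. The 22 G1 cyclins and CDK inhibitors had a median of -0.12, with 6 higher and 16 lower, and CDK4 at -0.01 (-0.22 to 0.20). MYC, a driver of growth, stood at -0.18 (-0.49 to 0.13), with its other kept probe at 0.05. Without WT-BPIFB4 replicate 1 the median of the G1 list was -0.07. The 45 DNA replication genes had a median of -0.09, with 10 higher and 35 lower, and the 41 mitosis genes -0.06, or -0.05 and -0.00 without that array. TOP2A, the topoisomerase of dividing cells, had levels of 11.90, 11.96 and 11.75 on the LAV-BPIFB4 arrays, against 12.36, 12.04 and 11.77 on the WT-BPIFB4 arrays and differed by -0.19, and BUB1, a spindle checkpoint kinase, by -0.13. In both, WT-BPIFB4 replicate 1 was the highest of the 6 arrays, and without it they stood at -0.03 and 0.05. The 20 p53 target genes had a median of -0.11, with 3 higher and 17 lower, and -0.12 without that array. SESN1 differed by -0.25 (-0.58 to 0.08) and CCNG1, a cyclin induced by p53, by -0.27 (-0.54 to -0.01), while ZMAT3, also a p53 target, differed by -0.01, with its other probes at -0.45 and -0.34. Without WT-BPIFB4 replicate 1, CCNG1 stood at -0.15 and ZMAT3 at 0.15. All 13 measured iron genes had lower means, with a median of -0.10, which was 0.00 without replicate 1 of both groups.

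Mitochondrial ribosomal and respiratory chain genes had medians slightly above 0 that depended on the same array. The 76 mitochondrial ribosomal proteins had a median of 0.08, with 58 higher and 18 lower, and 0.01 without WT-BPIFB4 replicate 1. The 74 respiratory chain and ATP synthase genes had a median of 0.07, with 49 higher and 25 lower, and -0.03 without that array. Their median level was 11.87, 11.99 and 12.04 on the LAV-BPIFB4 arrays, against 11.50, 11.99 and 12.06 on the WT-BPIFB4 arrays. Only WT-BPIFB4 replicate 1 lay low, and the other 5 arrays were close together. ATP5F1B, the catalytic subunit of ATP synthase, differed by 0.12 (-0.09 to 0.33). The 75 cytosolic ribosomal proteins had a median of 0.04, of which 68 had an interval within 1.5-fold, with RPS6 at 0.18 and RPS14 at 0.10, and a median of -0.01 without WT-BPIFB4 replicate 1. The 60 translation factors had a median of -0.05, with 22 higher and 38 lower, and 0.00 without that array. Of these, EEF1A1 and EIF4A1 differed by -0.00 (-0.17 to 0.17) and 0.04 (-0.15 to 0.24).

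The remaining classes gave no called member and medians near 0. Over 50 gene lists with 1823 distinct measured genes, no list had a called member. Of the 49 lists with at least 3 measured members, 45 had a median between -0.15 and 0.15. The exceptions were the 3 small RNA lists and the 5 metallothionein genes, at 0.33. Metallothioneins bind zinc and copper, and MT1X had levels of 9.82, 8.90 and 9.42 on the LAV-BPIFB4 arrays, against 9.01, 8.61 and 9.34 on the WT-BPIFB4 arrays, overlapping, with a difference of 0.40 (-0.17 to 0.96). The metallothionein median was 0.13 without replicate 1 of both groups. Leaving out each array in turn kept the sign of the median for 24 of the 49 lists, 11 above 0 and 13 below, and let it cross 0 for the other 25.

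The medians of autophagy (-0.07, 31 genes), lysosome (-0.04, 38 genes), proteasome (0.02, 40 genes), deubiquitinases (-0.05, 40 genes), sterol synthesis (-0.06, 22 genes), glycolysis (-0.02, 34 genes) and interferon response (0.05, 20 genes) were all within 0.1 of 0. Among their brightest members, SQSTM1, an autophagy receptor, differed by -0.07 (-0.31 to 0.17), PSMB1 of the proteasome by 0.03 (-0.19 to 0.25), and ENO1 of glycolysis by 0.01 (-0.18 to 0.20). The deubiquitinases USP1 and USP9X differed by -0.21 (-0.61 to 0.19) and -0.13 (-0.36 to 0.10). Without WT-BPIFB4 replicate 1, PSMB1 stood at -0.08 and USP1 at 0.04. SCD, a desaturase that makes monounsaturated fatty acids, differed by -0.18 (-0.42 to 0.06). FASN, fatty acid synthase, averaged 12.23 ± 0.21 with LAV-BPIFB4 and 12.54 ± 0.04 with WT-BPIFB4 (SD, n = 3 each), without overlap, and differed by -0.32 (-0.57 to -0.06, limma adjusted p = 0.971). JUN, of the AP-1 factor, differed by 0.21 (-0.03 to 0.44). Over the 104 genes that were among the 2 brightest of a list, differences lay between -0.32 for FASN and 0.55 for EPCAM. None passed the test, and the unadjusted interval excluded 0 for 9. Over all genes, 1.76% were higher and 2.1% lower at an unadjusted limma p under 0.05, the same criterion. Among genes above a mean level of 11, 4.94% met it in either direction. Whether 9 of 104 departs from these shares was not tested.

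**Figure D5:**
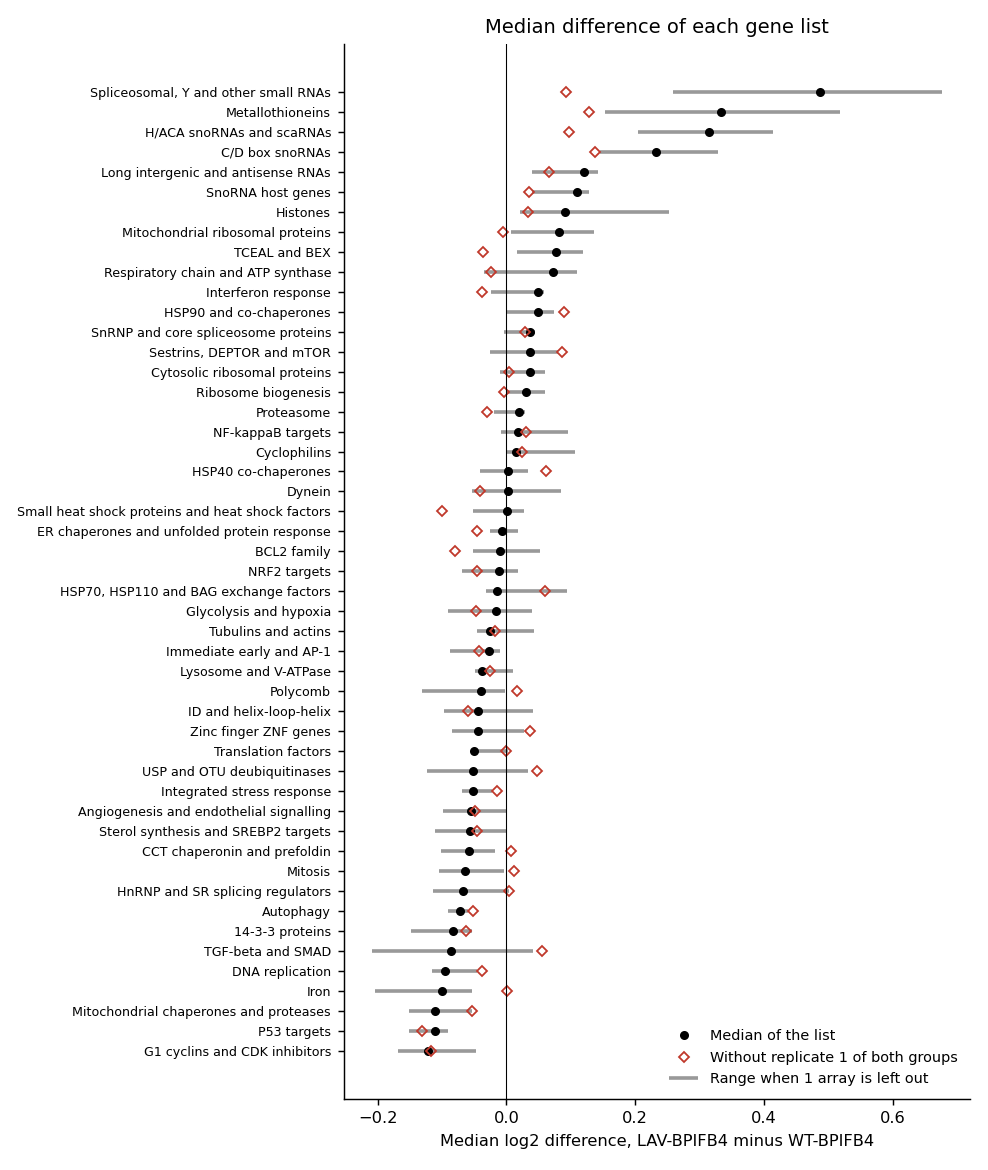
Median log2 difference, LAV-BPIFB4 minus WT-BPIFB4 (horizontal axis), of each of the 49 gene lists (vertical axis), with grey lines for the range when 1 array is left out and open diamonds for the value without replicate 1 of both groups. The list of spliceosomal, Y and other small RNAs stands furthest to the right, at 0.49. Metallothioneins follow at 0.33, then H/ACA snoRNAs at 0.31 and C/D box snoRNAs at 0.23. The diamonds of the 3 small RNA lists lie between 0.09 and 0.14.

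Probes without a single gene symbol held a larger share of the smallest p-values than their number. Of the 50 probes with the smallest p, 28 had no single symbol, 26 of them higher with LAV-BPIFB4, and the named ones comprised 15 higher and 7 lower. All 3 LAV-BPIFB4 arrays lay above all 3 WT-BPIFB4 arrays for 351 of the 4334 unnamed probes (8.1%), beside 4.23% of genes. What these probes read is not annotated in the tables used here.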

How the data were processed

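RNA of 9 HEK293T samples was measured on Illumina bead arrays. In the deposited non-normalized table each array has, per the file headers, an intensity and a detection p-value per probe. The authors made them with BeadStudio, per the submitters' processing notes; the version is not given in the sources used here. A second deposited table holds 1 intensity per probe and sample on a linear scale, with scale and normalization unstated. Its WT-BPIFB4 and empty-vector columns are linear functions of the same arrays, while its LAV-BPIFB4 columns match no array (highest r 0.992 to 0.994), so it served as an alternative.

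Intensities were background-corrected from the detection p-values, given an offset of 16, quantile-normalized over 9 arrays and log2-transformed with neqc (limma 3.58.1, R 4.3.3). A model with 3 group means was fitted with lmFit and eBayes with an intensity trend, so the empty-vector arrays share in the spread, and the scripts were tested on simulated data. Probes were called at a Benjamini-Hochberg adjusted p under 0.05. Intervals are unadjusted and cover 95%. The number of arrays limits the precision. Of 47310 probes, 30105 had 1 symbol, 8 several and 17197 none in the platform table. Symbols were updated through RefSeq (GRCh38.p14), which matched 30066 probes.

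Named are, in each direction, the 10 genes of smallest p, genes taken from earlier results and part of the 2 brightest members of each list, which are otherwise summarised. All 21 small RNAs are given. Chosen after their values were seen were SNORD15B, SNORA13, SNORA9, TOP2A, BUB1, SESN1, BAG5 and BRI3BP. The members, lists and genes were chosen with earlier results of these data known. Alternatives covered background, offset, scaling, filters, variance model, array weights, replicate block, single probes and each array left out. Leaving out replicate 1 of both groups was added after seeing the data.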

Additional observations from a re-analysis of the deposited data

How the results depend on the processing

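The absence of called probes held with no background correction, an offset of 50, the 6 arrays alone, the value table, 3 other probe filters, 2 other variance models, adjusted p thresholds of 0.01 and 0.1, each array left out in turn (0 to 0) and replicate 1 of both groups left out. It did not hold under 3 settings. Median scaling called 3 probes, all higher (RNY5 and 2 unnamed). Array weights called 1, HNRNPA3, lower. The replicate block called 16, with 15 higher and 1 lower, of which HSPA7, PTGR2, RHBDL2 and HNRNPA3 are named. The cause was not tested. Called list members numbered 1, 1 and 2 under these settings. Deviations of same-numbered arrays correlated at 0.114, 0.158 and 0.0123, and those of differently numbered arrays at -0.146 to 0.031. LAV-BPIFB4 replicates 1 and 2 each correlated best with the WT-BPIFB4 array of the same number. LAV-BPIFB4 replicate 3 correlated best with WT-BPIFB4 replicate 1, at 0.031. Whether the numbers pair the samples was left undecided, and the main model did not use them. Probes at an unadjusted p under 0.05 numbered 565 with median scaling, 2100 of 47310 with no filter and 593 of 13552 with the strict filter. They numbered 1601 with array weights, 1280 with the replicate block and 517 without replicate 1 of both groups. With 1 array left out they numbered 603 to 1471, the last without WT-BPIFB4 replicate 3. Genes with an interval within 1.5-fold numbered 10900 without background correction, 936 with median scaling and 10959 in the value table. Median scaling moved the median of all genes to 0.14, with 75.3% of genes higher in place of 47.3%; list medians under it are given relative to that shift, a choice made after seeing the data. The median of the spliceosomal, Y and other small RNAs fell from 0.49 to 0.21 in the value table and to 0.093 without replicate 1 of both groups. This counted as less than the spread between arrays, which was 0.57 for that list and included those replicate 1 arrays. Most list medians moved by less than the spread between arrays. The exceptions were the C/D box snoRNAs (0.10 from the value table), the H/ACA snoRNAs (0.095 from the value table, 0.20 to 0.41 with 1 array left out, 0.097 without replicate 1 of both groups), long intergenic RNAs (0.020 from the value table, 0.040 to 0.14 with 1 array left out), splicing regulators (-0.11 to 0.0042 with 1 array left out, 0.0044 without replicate 1 of both groups), TCEAL and BEX genes (0.016 to 0.12 with 1 array left out, -0.037 without replicate 1 of both groups), HEK293 markers (-0.16 to 0.097 with 1 array left out), 14-3-3 proteins (-0.014 with median scaling, -0.15 to -0.053 with 1 array left out) and cytosolic ribosomal proteins (-0.013 with median scaling, 0.0064 with array weights, 0.052 over all kept probes, -0.010 to 0.060 with 1 array left out, 0.0033 without replicate 1 of both groups). Low signal limits the precision of genes below a level of 7.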
